A study of Danio rerio with 12 samples.

Results

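Growing axons depend on microtubules, which are polymers of alpha and beta tubulin. Stathmins bind free tubulin and promote the shortening of microtubules, and the stathmin-2 proteins are concentrated in growth cones. The Elavl (Hu) proteins that mark neurons bind AU-rich stretches of RNA and steer its splicing and stability, and together with growth-cone proteins such as Gap43 and with doublecortin they are used as markers of young neurons, including the sympathetic lineage from which neuroblastoma arises. A set of 10 zebrafish genes of this kind was described here: the stathmin genes stmn2a, stmn2b, stmn1a and stmn1b, the growth-cone gene gap43, the doublecortin gene dcx, the RNA-binding protein genes elavl3 (HuC) and elavl4 (HuD), and the beta tubulin genes tubb5 and tubb2. They were taken by name, with no threshold on their values, but with earlier results of these data known, and 8 of the 10 had a row under that name among the 14581 genes of the table. The names dcx and tubb2 did not occur as rows. RefSeq lists zgc:112335 as another name of tubb2, and the row of that name was read as tubb2, although RefSeq also gives tubb2 as another name of tubb4b, which has a row of its own. This gave 9 rows.

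The samples were EGFP-positive cells sorted from neuroblastomas of transgenic zebrafish (Danio rerio), with 8 libraries from tumours driven by a MYC transgene and 4 from tumours driven by a MYCN transgene. Cells of both groups were sorted on EGFP, and their total RNA was depleted of ribosomal RNA and sequenced. The labels give neither the age of the fish, nor the promoters of the transgenes, nor the number of fish behind a library or a group. The p-values therefore speak only of the spread among these libraries, which may be technical. The series compares MYC-driven with MYCN-driven tumours.

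Levels are the authors' FPKM, that is, fragments scaled by transcript length and by sequencing depth, which allows levels of different genes to be set side by side. The depth in fragments is unknown. The FPKM of all genes summed to 567 to 1058 kFPKM per MYC library and 610 to 867 kFPKM per MYCN library, and 8688 to 9844 and 8858 to 9513 genes reached 1 FPKM. Some zeros followed whole sets of libraries, taken as the 4 MYCN, MYC 1 to 4 and MYC 5 to 8. Counted were genes at 0 in some libraries and at 5 FPKM or more in all others. Of these, 14 were at 0 in whole sets, alone or together, and 17 in other combinations of libraries. Only 1 was at 0 in MYC 1 to 4 alone, and 0 were so in MYC 5 to 8 alone. The actin gene actb2 was listed at 0 in all 4 MYCN libraries and at 2082 to 6510 FPKM in the MYC libraries, and 6 genes were at 0 in exactly the 4 MYCN and MYC 5 to 8 libraries while reaching at least 5 FPKM in each of the others. MYC 1 to 4, MYC 5 to 8 and MYCN 1 to 4 were therefore also treated as 3 separate sets, and since the MYCN libraries lie in a set of their own, set and genotype cannot be told apart. The libraries MYC 3, MYC 7 and MYCN 3 deviated together from their sets: across the tested genes their deviations correlated at 0.56 (MYC 3 with MYCN 3), 0.55 (MYC 7 with MYCN 3) and 0.51 (MYC 7 with MYC 3), against -0.45 to 0.47 for all other pairs across sets. Genes are not independent points, so these values are a description.

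The sorted cells carried the RNA of noradrenergic neuroblasts. The summed FPKM of 11 noradrenergic markers, among them dbh, th, hand2 and phox2bb, was 3474 at the lowest, 4240 at the median and 5125 at the highest in MYC libraries, against 6469, 6903, 5813 and 7732 in MYCN 1 to 4. The sums did not overlap, but dbh, th, hand2 and phox2bb each did when taken singly. Of the other markers only gata2a (89.9 to 293 FPKM in MYC, 326 to 471 in MYCN) and isl1 (0.730 to 14.5 and 31.2 to 79.5 FPKM) did not overlap. Of all tested genes 5.60% had every MYC library below every MYCN library. The sum was carried largely by dbh (means of 1803 FPKM in MYC and 2499 in MYCN) and hand2 (1242 and 2569). Of the 10 noradrenergic markers tested 4 fell and 0 rose, where 7.63% of all tested genes fell and 5.77% rose. The fold change was negative for 9 of the 10, while ddc was higher in MYC (121 against 69.8 FPKM). Markers of other neuron types were close to 0, with 12 of 13 measured markers under 1 FPKM in every library and a summed FPKM of 0.171 to 3.17 in MYC and 0.276 to 0.832 in MYCN. Macrophage markers, 14 of 16 measured, summed to 414 to 2024 FPKM in MYC and 154 to 836 FPKM in MYCN (6 of 12 tested rose), and pan-leukocyte markers, 8 rows matched, to 89.2 to 302 and 28.2 to 104 FPKM (7 of 8 rose). Glial and Schwann markers, 10 of 11 measured and 8 of them under 1 FPKM in every library, summed to 16.8 to 52.3 FPKM in MYC and 9.91 to 19.1 FPKM in MYCN, with 1 rising and 1 falling of the 2 tested. Erythroid markers, 9 of 10 measured, summed to 60.02 to 1455 FPKM in MYC and 334 to 749 FPKM in MYCN, and fibroblast markers, 6 of 7 measured under 1 FPKM in every library, to 0.460 to 3.69 and 3.53 to 5.80 FPKM. Of the erythroid markers 0 of 8 tested were called by limma. The 1 fibroblast marker tested fell. Of 4 skin and epithelial markers tested 1 rose, and of the 5 interrenal, 1 endothelial and 1 kidney markers tested 0 were called. In bulk RNA fewer cells of a type and less RNA per cell cannot be told apart. Among the lists with at least 8 markers tested, the noradrenergic, macrophage and pan-leukocyte markers differed between the genotypes, and the last 2 lists also differed between the MYC sets. Macrophage markers summed to 767 to 2024 FPKM in MYC 1 to 4 and 414 to 538 FPKM in MYC 5 to 8. MYCN 3, at 836 FPKM, lay above all of MYC 5 to 8. Pan-leukocyte markers summed to 194 to 302 and 89.2 to 129 FPKM. Between these sets limma called 2 of 12 macrophage and 1 of 8 pan-leukocyte genes, all lower in MYC 5 to 8. The part of the 3 marker lists in the results that follow was not tested.

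The beta tubulin gene tubb5 fell in MYC tumours, while the more abundant stathmins and both Elavl genes overlapped between the groups. The stathmin gene stmn2b was lower in MYC tumours too, but it entered the test through its values in the MYCN libraries, and its difference is given as a description. Of the 9 rows, gap43 was listed at 0 in all 12 libraries, and 8 passed the filter of at least 1 FPKM in at least 4 libraries. Across all 9606 genes tested, limma on log2(FPKM + 1) with Benjamini-Hochberg adjustment at 0.05 called 1287, or 13.4%. Of these 733 fell, or 7.63%, and 554 rose, or 5.77%. After rescaling to a common sum per library 902 fell and 369 rose. Here "rose" and "fell" mean higher and lower in MYC with an adjusted p under 0.05. Among the 8 studied genes 2 fell, 0 rose and 6 did not pass. As stmn2b was over 1 FPKM in the 4 MYCN libraries only, it had to differ to pass the filter, so the count is a description.

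**Figure D1:**
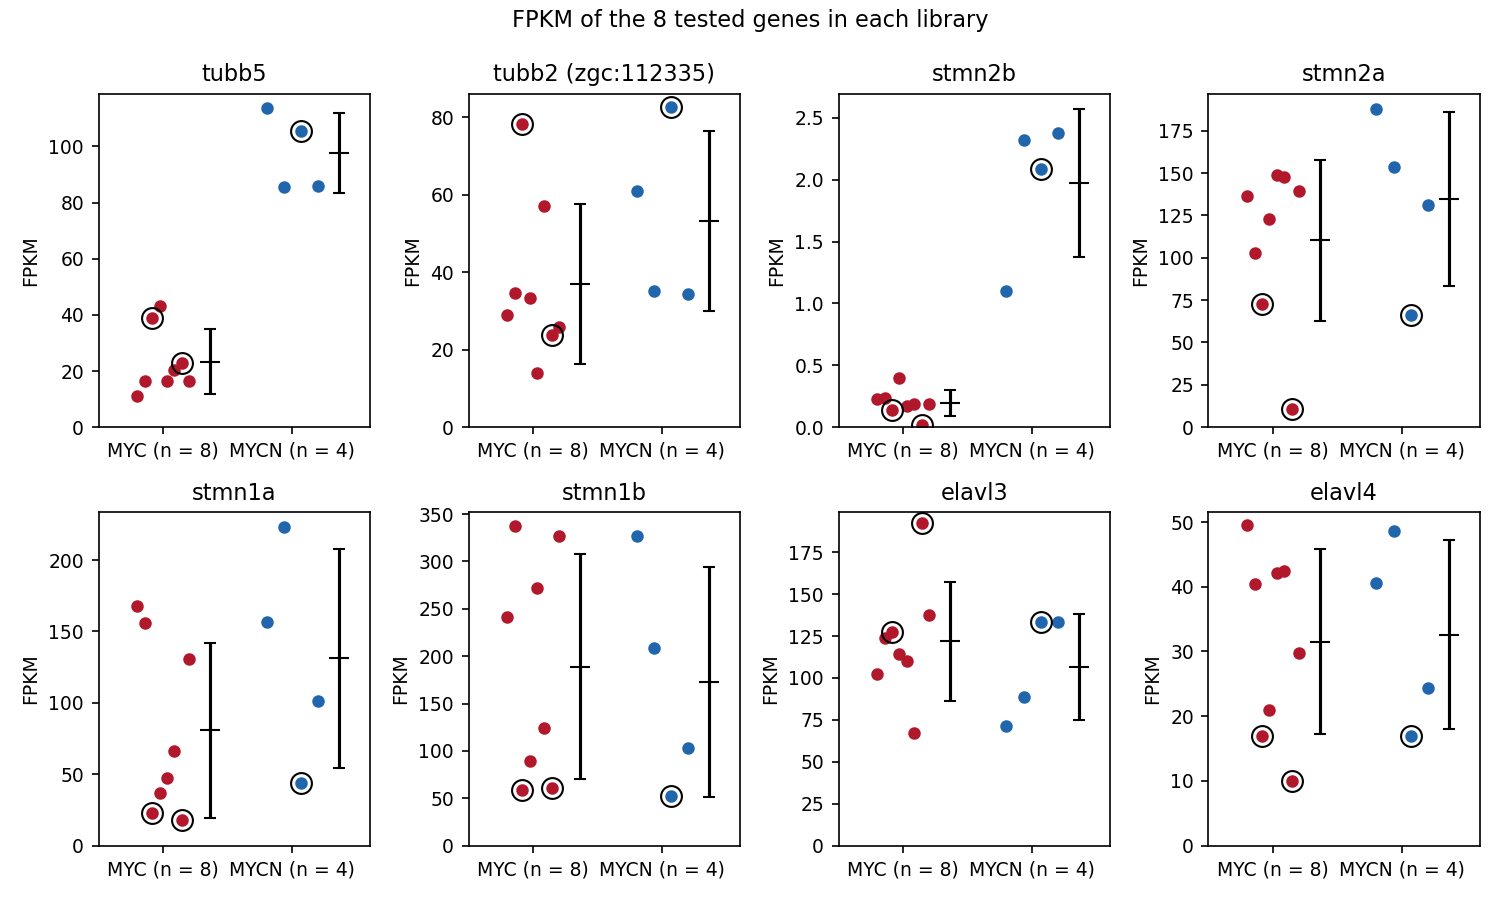
FPKM (vertical axis, from 0) of the 8 tested genes in each of 8 MYC libraries (red) and 4 MYCN libraries (blue), with the mean and SD beside each group; ringed points are MYC 3, MYC 7 and MYCN 3. The MYC libraries lie below all MYCN libraries for tubb5 (11.2 to 43.3 against 85.5 to 114 FPKM) and stmn2b (0.0215 to 0.399 against 1.1 to 2.38 FPKM), and the groups overlap for the other 6 genes. The gene stmn2b passed the filter through the MYCN libraries only, so its groups had to differ.

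The beta tubulin gene tubb5 stood at 11.2 FPKM in the lowest, 18.6 at the median and 43.3 in the highest MYC library, against 114, 85.5, 106 and 85.9 FPKM in MYCN 1 to 4. Every MYC library lay below every MYCN library, a pattern that 5.60% of all tested genes showed, while 3.73% showed the opposite one. The means were 23.3 ± 11.6 FPKM in MYC (SD, n = 8) and 97.7 ± 14.2 FPKM in MYCN (n = 4), which is 4.19-fold lower in MYC. The log2 fold change was -2.14 ± 0.31 (SE, adjusted p = 0.000586). Against MYCN it was -1.98 for MYC 1 to 4 (adjusted p = 0.0133) and -2.30 for MYC 5 to 8 (0.000234), and it was -2.26 without MYC 3, MYC 7 and MYCN 3 (0.00183). Within the MYC libraries MYC 3 (38.9 FPKM) and MYC 4 (43.3 FPKM) were the highest.

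The tubulin gene tubb2, read from the row zgc:112335, stood at 13.9, 31.2 and 78.3 FPKM in the lowest, median and highest MYC libraries, against 61.1, 35.1, 82.8 and 34.4 FPKM in MYCN 1 to 4. The groups overlapped over most of their range. The log2 fold change was -0.59 (95% interval -1.42 to 0.24, adjusted p = 0.345). In MYCN libraries tubb5 lay above tubb2 with no overlap of the ranges (85.5 to 114 against 34.4 to 82.8 FPKM), while in MYC libraries their ranges overlapped and tubb2 had the higher mean, 37.0 against 23.3 FPKM.

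Of the other beta tubulins in the table, tubb4b was by far the most abundant, at 716 ± 145 FPKM in MYC and 714 ± 295 FPKM in MYCN. Its log2 fold change was 0.07 (95% interval -0.46 to 0.59, adjusted p = 0.892) and turned to -0.19 with quantile normalisation and to -0.12 with every library set to the same sum. The gene tubb2b, matched to the row zgc:123194, stood at 336 ± 233 FPKM in MYC and 447 ± 220 FPKM in MYCN (-0.53, 95% interval -1.45 to 0.39, adjusted p = 0.462). Within each library tubb5 made up 2.09 ± 0.77% of the FPKM of the 5 beta tubulin rows tubb2, tubb2b, tubb4b, tubb5 and tubb6 in MYC (SD, range 1.21 to 3.56%), and 8.24 ± 3.03% in MYCN (range 5.14 to 11.8%). The share of tubb4b was 66.5 ± 10.1% in MYC and 54.2 ± 1.40% in MYCN. Beta tubulin transcripts resemble each other closely, and how the authors treated reads that fit several copies is not given, so the split between these genes is uncertain.

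The gene stmn2b, one of the 2 fish copies of stathmin-2 (SCG10), was near the floor of the table. It stood at 0.0215 FPKM in the lowest, 0.186 at the median and 0.399 in the highest MYC library, against 1.1, 2.32, 2.09 and 2.38 FPKM in MYCN 1 to 4. The groups did not overlap, and the lowest MYCN library, MYCN 1, lay just above the 1 FPKM limit of the filter. The means were 0.195 ± 0.106 FPKM in MYC and 1.97 ± 0.60 FPKM in MYCN, 10.1-fold lower in MYC. The log2 fold change was -1.29 and became -2.84 with a pseudocount of 0.1 FPKM, since adding 1 FPKM compresses values this low. Taken against MYCN alone, MYC 1 to 4 gave -1.23, and MYC 5 to 8 gave -1.36. No p-value is given, because the filter fixed which group was higher. By mean level stmn2b ranked 9583rd of the 9606 genes tested.

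Its copy stmn2a held nearly all the stathmin-2 RNA and was not called. It stood at 10.7, 130 and 149 FPKM in the lowest, median and highest MYC libraries, against 188, 154, 66.3 and 131 FPKM in MYCN 1 to 4. The lowest value was that of MYC 7, and the other 7 MYC libraries, at 73.0 to 149 FPKM, all lay within the MYCN range. The log2 fold change was -0.48 (95% interval -1.72 to 0.77, adjusted p = 0.643), and it was -0.05 without MYC 7. Within a library stmn2a exceeded stmn2b by 309 to 892 times in MYC and by 31.7 to 172 times in MYCN.

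The stathmin-1 genes, which in vertebrates are used in dividing cells as well as in neurons, varied widely inside each genotype. The gene stmn1a stood at 18.2, 57.0 and 168 FPKM in the lowest, median and highest MYC libraries, against 157, 223, 43.8 and 102 FPKM in MYCN 1 to 4 (log2 fold change -0.88, 95% interval -2.19 to 0.43, adjusted p = 0.374). The gene stmn1b stood at 58.9, 183 and 338 FPKM in MYC, against 327, 208, 51.9 and 103 FPKM in MYCN 1 to 4. Its log2 fold change was 0.14 (95% interval -1.09 to 1.37, adjusted p = 0.905) and turned to -0.05 after rescaling to a common sum. Across the 12 libraries the highest value exceeded the lowest 12.2 times for stmn1a and 6.50 times for stmn1b. Intervals this wide leave room for a change of 2-fold in either direction in stmn1b.

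Both Elavl genes overlapped between the genotypes. The pan-neuronal gene elavl3 stood at 67.3, 119 and 193 FPKM in the lowest, median and highest MYC libraries, against 71.3, 88.9, 133 and 133 FPKM in MYCN 1 to 4. Its spread was the smallest of the 8 genes, with 2.86 times between the highest and the lowest library. The log2 fold change was 0.19 (95% interval -0.36 to 0.73, adjusted p = 0.687). The gene elavl4 stood at 10.01, 35.0 and 49.6 FPKM in MYC, against 40.5, 48.6, 16.9 and 24.3 FPKM in MYCN 1 to 4 (-0.09, 95% interval -0.96 to 0.77, adjusted p = 0.909). Their summed level was 153 ± 27 FPKM in MYC and 139 ± 20 FPKM in MYCN. The relative elavl1a, a widely used member of the family listed as elavl1, stood at 29.7 ± 10.9 FPKM in MYC and 48.4 ± 10.5 FPKM in MYCN (-0.74 ± 0.27, adjusted p = 0.0883). With the replicate number as a block elavl1a was called (-1.09, adjusted p = 0.00740), as it was for MYC 1 to 4 (0.0262), with library weights (0.0311) and without MYC 5 (0.0385). For MYC 5 to 8 its log2 fold change was -0.38 (0.392).

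**Figure D2:**
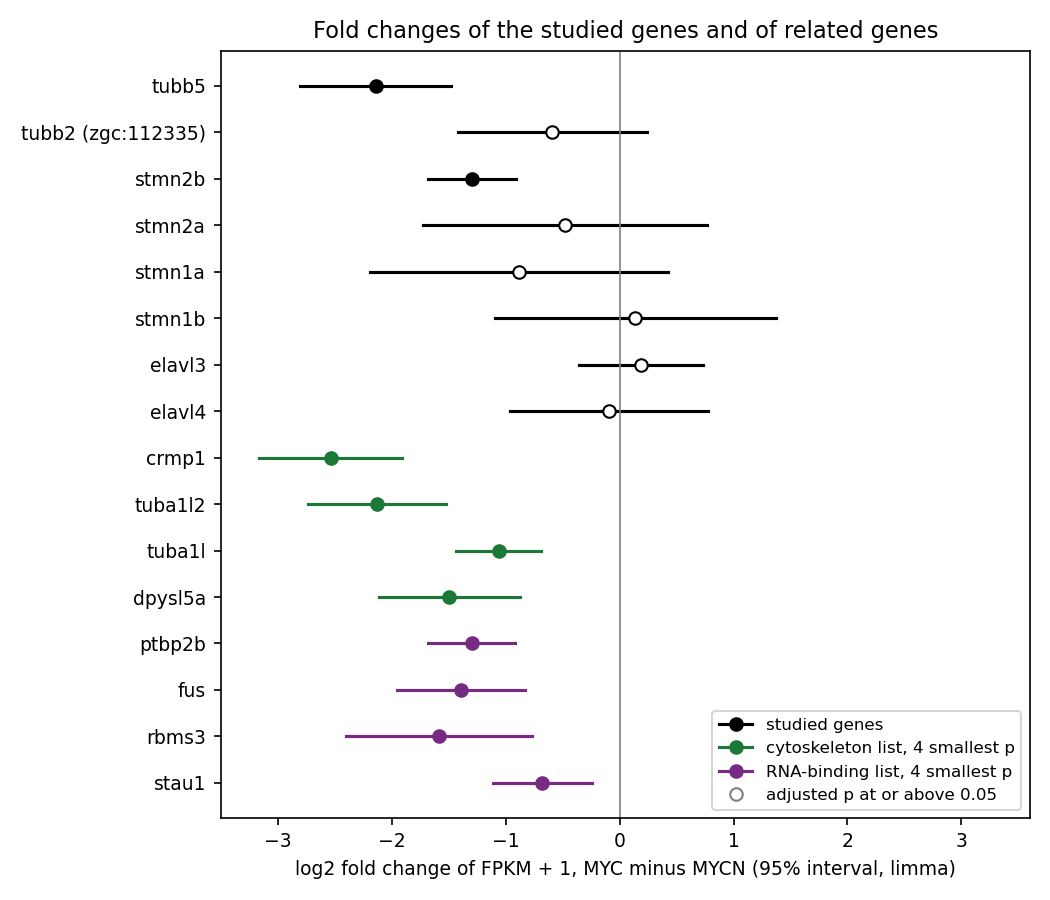
Log2 fold change of FPKM + 1, MYC minus MYCN (horizontal axis), with 95% intervals from limma for the 8 tested genes of the set (black) and the 4 genes with the smallest p of each of 2 wider lists (green and purple); filled points have an adjusted p under 0.05. The points of tubb5 (-2.14) and of stmn2b (-1.29, which passed the filter through the MYCN libraries only) are filled, and the intervals of the other 6 genes of the set cross 0.

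The gene gap43, which encodes an abundant protein of growth cones, was listed at 0 in all 12 libraries. The same holds for 705 genes of the table, among them the elongation factor gene eef1a1l1, so a row of zeros need not mean that the gene was silent. No level or comparison is given for gap43.

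By mean FPKM the order in MYC libraries was stmn1b (189), elavl3 (122), stmn2a (110), stmn1a (80.7), tubb2 (37.0), elavl4 (31.5), tubb5 (23.3) and stmn2b (0.195). In MYCN libraries it was stmn1b (173), stmn2a (135), stmn1a (131), elavl3 (107), tubb5 (97.7), tubb2 (53.3), elavl4 (32.6) and stmn2b (1.97). Neighbours in either order overlapped in range except stmn2b and the gene above it in both orders, and tubb5 and tubb2 in MYCN.

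Differences between related genes inside a library depend little on how libraries were scaled. The pairs compared, 4 in all, were each tested by an exact permutation test over the 12 libraries (two-sided, smallest p possible 0.00404), with Benjamini-Hochberg adjustment over the 4 pairs. The stmn1b FPKM was 1.44, 2.47 and 5.71 times that of stmn1a in the lowest, median and highest MYC libraries, against 2.09, 0.932, 1.19 and 1.02 times in MYCN 1 to 4. The log2(FPKM + 1) difference, stmn1b minus stmn1a, was 1.33 ± 0.58 in MYC (SD) and 0.31 ± 0.52 in MYCN, 1.02 higher in MYC (exact permutation p = 0.0121, adjusted p = 0.0242). The ratio was above 1 in 8 of 8 MYC libraries and in every MYCN library except MYCN 2 (0.932), and the groups overlapped through MYCN 1. The call ended without MYCN 2, MYCN 3 or MYCN 4 (adjusted p = 0.0727 in each case) and without MYC 3, MYC 7 and MYCN 3 together (0.0952), while the difference stayed at 0.88, 0.998, 0.93 and 0.94. Leaving libraries out also raises the smallest p that the exact test can give.

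The tubb5 FPKM was 0.360, 0.566 and 1.30 times that of tubb2 in the lowest, median and highest MYC libraries, against 1.86, 2.43, 1.27 and 2.497 times in MYCN 1 to 4. The groups touched where MYC 4 (1.30) passed MYCN 3 (1.27). The log2 difference, tubb2 minus tubb5, was 0.60 ± 0.70 in MYC and -0.95 ± 0.44 in MYCN, 1.55 higher in MYC (exact permutation p = 0.00808, adjusted p = 0.0242). The call ended without MYCN 2 or MYCN 4 (adjusted p = 0.0727) and without the 3 libraries that deviate together (0.0952), with differences of 1.45, 1.43 and 1.78. Without those 3 libraries the ratios no longer overlapped (at most 1.30 in MYC, at least 1.86 in MYCN). The exact test on the remaining libraries could give no smaller p for this pair, so that ended call does not show a weaker difference. For both pairs the difference kept its direction against each MYC set but was not called. It was 0.75 and 1.29 for the stathmin pair and 1.69 and 1.41 for the tubulin pair in MYC 1 to 4 and MYC 5 to 8. The adjusted p was 0.114 in each case by the exact test, where 4 against 4 libraries cannot give a p below 0.0286. After adjustment over the 4 pairs, a pair that alone reaches that smallest p stays at 0.114, so it could not be called. The tubb5 to tubb2 ratios of MYC 5 to 8 (0.360 to 1.19) all lay below those of MYCN (1.27 to 2.497). The missing calls against each MYC set therefore do not by themselves show a weaker difference.

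For stmn2b minus stmn2a the difference between genotypes was -0.82. It was -2.35 with a pseudocount of 0.1 FPKM and -1.21 without MYC 7. No p-value is given for this pair, because stmn2b passed the filter through the MYCN libraries only. For elavl4 minus elavl3 the difference between genotypes was -0.28, with -2.02 ± 1.12 in MYC and -1.74 ± 1.08 in MYCN (adjusted p = 0.715 by the exact test). Its sign turned without MYC 7, MYCN 1 or MYCN 2.

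**Figure D3:**
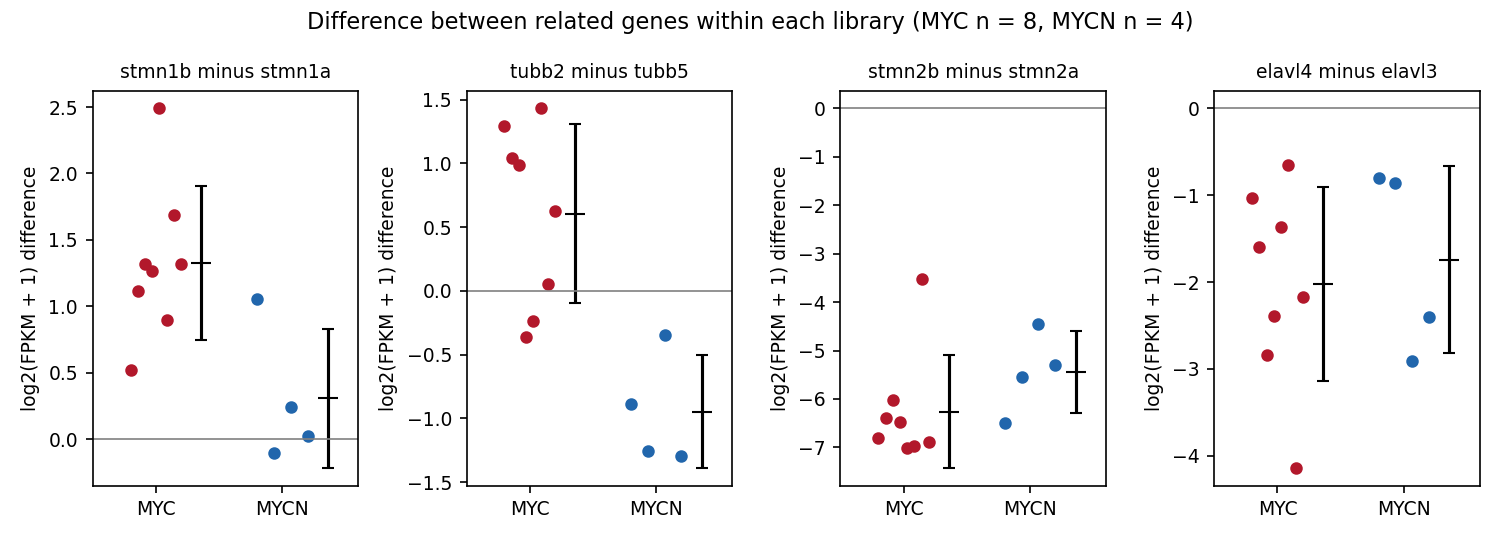
Difference in log2(FPKM + 1) between 2 related genes (vertical axis; its range differs between panels) in each MYC library (red, n = 8) and MYCN library (blue, n = 4), with mean and SD; tubb2 is the row zgc:112335. The mean lies 1.02 higher in MYC for stmn1b minus stmn1a and 1.55 higher for tubb2 minus tubb5, and MYC 7 stands alone at -3.51 for stmn2b minus stmn2a. In plain FPKM, without the added 1, the stmn2a to stmn2b ratio of MYC 7 lies inside the range of the other MYC libraries.

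In some of the studied genes the lowest or highest libraries of each set were those that deviate together. For stmn1a, stmn1b, stmn2a and elavl4, and for their relative stmn4, MYC 3, MYC 7 and MYCN 3 were each the lowest of their own set of 4. In elavl3 the same 3 libraries were each the highest of their set, with 128, 193 and 133 FPKM, although MYCN 4 lay close below MYCN 3. Of all tested genes 29.2% were lowest in all 3 of these libraries and 4.34% were highest in all 3, against 4 of 8 and 1 of 8 of the studied genes. The 3 libraries were picked from these same data, so these counts are a description. The gene stmn2b was lowest in 2 of the 3, and tubb5 and tubb2 were lowest in 0 of the 3. MYC 4 was also low for stmn1a (36.7 FPKM) and stmn1b (89.5), beside MYC 1 (168 and 241) and MYC 2 (156 and 338). Summed glial and Schwann markers were also lowest of their set in MYC 3 (16.8 FPKM), MYC 7 (19.0) and MYCN 3 (9.91). Most of that sum was the single gene mbpb (15.9, 18.7 and 7.78 FPKM). The sums of the other marker lists did not share the pattern. Taken singly, the noradrenergic genes hand2, phox2a and ddc were each lowest of their set in these 3 libraries, and the other noradrenergic markers were not. The gene th was highest of its set in MYC 3 (807 FPKM) and MYC 7 (712). Summed pan-leukocyte markers were highest of their set in MYC 7 (129 FPKM) and MYCN 3 (104), but not in MYC 3 (249). The part of these libraries in the wide spread of the stathmins was not tested beyond leaving them out.

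**Figure D4:**
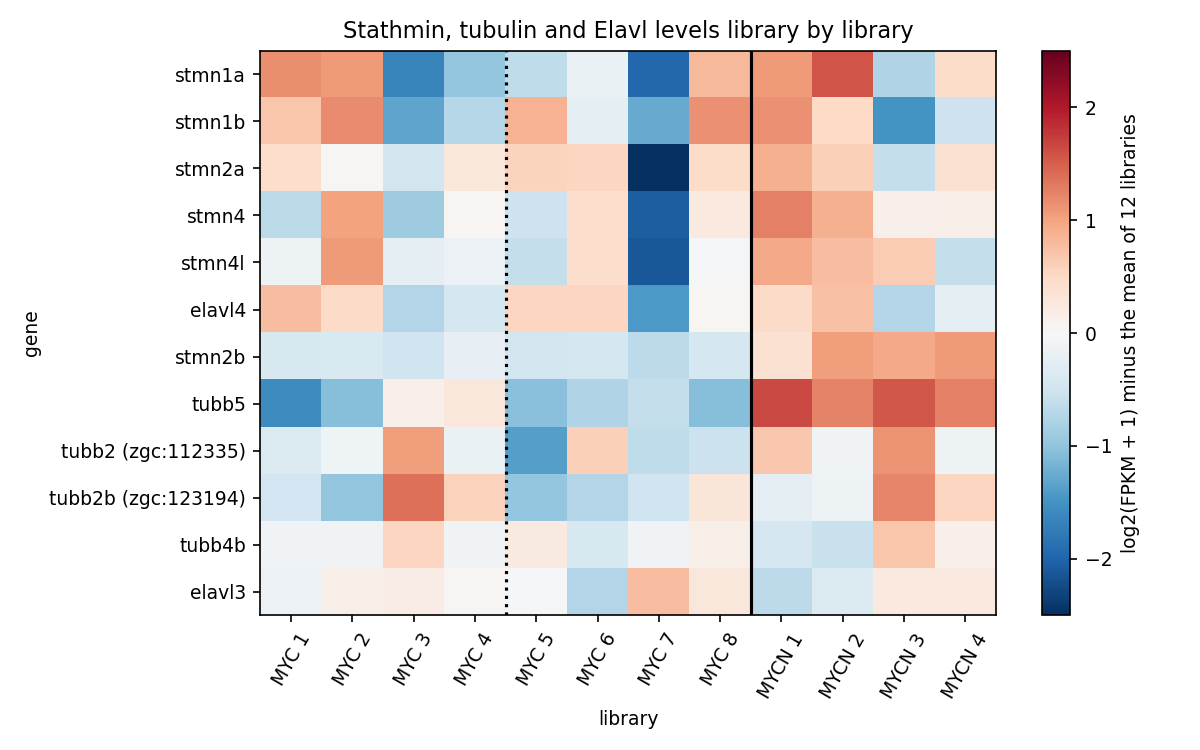
Log2(FPKM + 1) of 12 stathmin, tubulin and Elavl genes (rows) in each library (columns), minus the gene's mean over the 12 libraries, red above and blue below the mean; the solid line parts MYC from MYCN and the dotted line MYC 1 to 4 from MYC 5 to 8. The rows of stmn1a, stmn1b, stmn2a, stmn4 and elavl4 are lowest of their set in MYC 3, MYC 7 and MYCN 3. The row of tubb5 parts the genotypes with MYC lower, as 5.60% of all tested genes do. That of stmn2b parts them too, but it passed the filter through the MYCN libraries only and so had to differ.

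Inside the MYC group the 2 sets did not differ detectably in these genes. For MYC 5 to 8 minus MYC 1 to 4, limma called 0 of the 8 studied genes, against 0.458% of all tested genes (44 genes, with 842 at an unadjusted p under 0.05), and 0 of the 8 reached an unadjusted p of 0.05. The tubb5 means were 19.1 ± 3.20 FPKM in MYC 5 to 8 and 27.4 ± 16.01 FPKM in MYC 1 to 4 (log2 difference -0.31, 95% interval -1.21 to 0.59). For stmn2a, stmn1a and stmn1b the intervals spanned more than 1 log2 unit to each side of 0, so sizeable differences would have been missed.

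Among other genes of the neuronal cytoskeleton 4 of 6 collapsin response mediator genes and 2 of 4 alpha tubulin genes tested fell in MYC tumours. A list of 52 such genes, without the members, had 35 rows in the table and 31 tested, of which 9 fell, 0 rose and 22 did not pass, where 7.63% of all tested genes fell. The median log2 fold change was -0.40, against -0.05 over all tested genes, and 21 of 31 values were negative. The median was -0.27 for MYC 1 to 4, -0.57 for MYC 5 to 8 and -0.30 without MYC 3, MYC 7 and MYCN 3, where 9 again fell. Rescaling to a common sum took the median of all genes to -0.22 and that of the list to -0.54.

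The smallest p-values of the list were those of a collapsin response mediator gene and of 2 alpha tubulin genes. The gene crmp1, whose protein relays semaphorin signals to the cytoskeleton, stood at 0.776, 1.24 and 3.23 FPKM in the lowest, median and highest MYC libraries, against 19.7, 9.10, 18.4 and 9.64 FPKM in MYCN 1 to 4. The groups were far apart, and the log2 fold change was -2.53 ± 0.29 (SE, adjusted p = 9.81e-05). The alpha tubulin gene tuba1a, listed as tuba1l2, stood at 31.9, 37.9 and 104 FPKM in MYC, against 171, 188, 241 and 195 FPKM in MYCN 1 to 4 (-2.13 ± 0.28, adjusted p = 0.000308). A further alpha tubulin gene, tuba1c, listed as tuba1l, stood at 49.3 ± 7.31 FPKM in MYC and 104 ± 18.3 FPKM in MYCN (-1.06 ± 0.17, adjusted p = 0.00152). The other alpha tubulin genes of the list did not pass: tuba1b stood at 14.98 ± 4.05 FPKM in MYC and 12.9 ± 10.7 FPKM in MYCN (0.54, adjusted p = 0.465), and tuba2 at 36.4 ± 14.3 and 34.0 ± 12.03 FPKM (0.07, adjusted p = 0.924). Like the beta tubulins, these genes may share reads with near-identical copies.

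Of the 5 relatives of crmp1 tested, 3 fell. The gene dpysl5a stood at 13.0 ± 4.41 FPKM in MYC and 38.7 ± 16.2 FPKM in MYCN (-1.50 ± 0.29, adjusted p = 0.00406), dpysl3 at 19.4 ± 7.14 and 54.1 ± 15.1 FPKM (-1.47 ± 0.30, adjusted p = 0.00520) and dpysl4 at 4.72 ± 1.32 and 10.9 ± 2.58 FPKM (-1.07 ± 0.23, adjusted p = 0.00852). The relatives dpysl2b (12.4 ± 5.41 FPKM in MYC, 12.9 ± 7.82 FPKM in MYCN) and dpysl5b (3.28 ± 1.43 and 4.32 ± 0.41 FPKM) did not pass (adjusted p = 0.983 and 0.410). The last 3 of the list that fell were basp1, a membrane protein of growth cones (-1.50 ± 0.31, adjusted p = 0.00673), fez1, an adaptor of kinesin-driven axonal transport (-0.75 ± 0.18, adjusted p = 0.0156), and marcksb, a substrate of protein kinase C that binds actin (-0.95 ± 0.27, adjusted p = 0.0332). The genes tuba1b, tuba2, dpysl2b, dpysl5b, dpysl3, dpysl4, basp1, fez1 and marcksb, like the relatives stmn4, stmn4l, tubb4b, tubb2b and elavl1a, were named after their values were seen. The calls of dpysl4 (0.0614) and basp1 (0.0533) ended against MYC 5 to 8. That of fez1 ended against MYC 1 to 4 (0.0648) and without MYCN 2 (0.0565) or MYCN 4 (0.0515). That of marcksb ended against either MYC set (0.112 for MYC 1 to 4, 0.0731 for MYC 5 to 8) and without MYCN 1 (0.0801), MYCN 2 (0.126) or MYCN 4 (0.0789). The stathmin relatives stmn4 (13.4 ± 8.31 FPKM in MYC, 23.0 ± 9.35 FPKM in MYCN) and stmn4l (37.4 ± 20.8 and 55.4 ± 21.6 FPKM) did not pass (adjusted p = 0.214 and 0.380).

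Of 50 other RNA-binding proteins, most of them used in neurons, 39 had rows and 34 were tested, of which 4 fell, 0 rose and 30 did not pass, beside the 7.63% that fell over all tested genes. The median log2 fold change was -0.37, and 25 of 34 were negative. With the replicate number as a block 9 fell and 2 rose, with quantile normalisation 8 fell and with library weights 7 fell, against 2 for MYC 5 to 8 and 2 without MYCN 4. Without MYC 3, MYC 7 and MYCN 3, 5 fell and 1 rose. The splicing regulator gene ptbp2b stood at 24.9 ± 3.10 FPKM in MYC and 63.6 ± 14.8 FPKM in MYCN (-1.30 ± 0.18, adjusted p = 0.000410). The gene fus, whose protein acts in transcription and RNA processing, stood at 18.5 ± 6.48 FPKM in MYC and 49.8 ± 15.4 FPKM in MYCN (-1.39 ± 0.26, adjusted p = 0.00352). The gene rbms3, which encodes a protein that binds single-stranded nucleic acids, stood at 5.39 ± 3.76 FPKM in MYC and 16.1 ± 3.92 FPKM in MYCN (-1.59 ± 0.38, adjusted p = 0.0141, and 0.0702 against MYC 5 to 8 and 0.0583 without MYCN 4). The gene stau1, which binds double-stranded RNA and takes part in its transport, stood at 33.2 ± 7.41 FPKM in MYC and 53.3 ± 9.37 FPKM in MYCN (-0.68 ± 0.20, adjusted p = 0.0402). Its call ended against MYC 1 to 4 (0.0521), MYC 5 to 8 (0.186) and without any 1 of MYCN 1, MYCN 2, MYCN 4, MYC 1, MYC 2, MYC 3, MYC 4, MYC 7 or MYC 8 (0.0516 to 0.125).

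The genes closest in pattern to stmn2b and elavl3 were found by the root mean square difference of log2(FPKM + 1) over the 12 libraries, each gene centred on its own mean. Closest to stmn2b were calb2b, a calretinin gene (difference 0.21, 0.243 ± 0.185 FPKM in MYC and 2.56 ± 0.67 FPKM in MYCN), gng13b, a G protein gamma subunit (0.23), and vwc2l (0.25), all genes near 0 in MYC. Like stmn2b, these genes passed the filter through the MYCN libraries only. The filter thus fixed which group was higher, and the likeness is a description. The stmn2b values themselves spread by 0.64 around their mean. Closest to elavl3 were ascc1 (0.16), znf410 (0.21) and daxx, a histone chaperone gene (0.22), where the elavl3 values spread by 0.40. For gap43 no pattern could be computed.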

How the data were processed

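The deposited table holds the authors' FPKM values, 1 column per library. Per the submitters' processing notes cutadapt, TopHat2 2.0.11 and Cufflinks 2.2.1 were used; the genome build, the annotation and the handling of shared reads are not given in the sources used here. Genes that reached 1 FPKM in 4 or more of the 12 libraries were tested as log2(FPKM + 1), MYC minus MYCN, with limma 3.58.1 in R 4.3.3 (eBayes with a trend, two-sided). P-values were adjusted by Benjamini-Hochberg over all tested genes, with a threshold of 0.05. Fold changes on this scale understate those of low genes. Pairs of related genes were compared by exact permutation in SciPy 1.17.1. List symbols were matched by name or through RefSeq's other names. The main fit and the main permutation test were unpaired. Only the replicate block, an alternative, paired MYC 1 to 4 with MYCN 1 to 4 by replicate number. It was run because deviations from group means correlated across genes at 0.25, 0.38, 0.53 and 0.15, all above 0.1. The meaning of the numbers is not in the labels. From set means the same-numbered pairs 1 to 4 correlated at 0.36, 0.47, 0.56 and 0.16. Each of MYC 1 to 4 correlated best with the MYCN library of its own number. Among MYC 1 to 4, each MYCN library except MYCN 4 also did so with its own number. MYC 7, which has no MYCN library of its number, correlated with MYCN 3 at 0.55 (deviations from set means), so such values do not establish a pairing. The members and lists were chosen with earlier results of these data known. Named were all members, the 4 genes of each list with the smallest p, and the 3 genes nearest in pattern to stmn2b, gap43 and elavl3. Alternatives covered the pseudocount, filter, scaling, weights, replicate block, MYC sets and each library left out. Leaving out MYC 3, MYC 7 and MYCN 3 together was chosen after seeing the data.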

Additional observations from a re-analysis of the deposited data

Results flagged for a closer look

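Of 72 groups of library values checked, 7 held a library far from the others of its group. The cut-off flags about 1 in 20 groups by chance for independent, normally distributed values. FPKM values need not be so distributed, and some of these genes were picked for a shared pattern, so the count is a description. The value given is the gap to the nearest library divided by the range of the group. MYC 7 was far from the other MYC libraries in 4 of the 7 groups. Its stmn2b minus stmn2a difference was -3.51, the highest of the 8 MYC libraries (0.718), with -7.01 the lowest. That gap depends on the added 1 FPKM. In plain FPKM stmn2a was 496 times stmn2b in MYC 7, inside the MYC range of 309 to 892 times. MYC 7 was also the highest MYC library for tuba1a, listed as tuba1l2, at 104 FPKM (0.573), for rbms3 at 13.3 FPKM (0.528) and for daxx (0.554). MYC 8 was the highest for fus, at 32.0 FPKM (0.568). MYC 1 was far from the others for calb2b (0.627) and MYC 6 for gng13b (0.580).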

How the results depend on the processing

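The calls of tubb5, crmp1, tuba1a, tuba1c, dpysl5a, dpysl3, ptbp2b and fus kept their direction and their side of the threshold in all 23 alternatives. For tubb5 the log2 fold change ran from -2.32 to -1.98 (adjusted p 0.000102 to 0.0133). With a filter of 5 FPKM 1 of 7 studied genes was called, since stmn2b was then not tested. The number of all genes called was 1978 with library weights and 850 for MYC 5 to 8. It was 2261 with the replicate block, which leaves out MYC 5 to 8, against 912 for MYC 1 to 4 without the block. With 1 library left out it was 707 to 1346 (813 without MYCN 1, 815 without MYCN 2, 707 without MYCN 4). Of the studied genes left uncalled, stmn1b turned to -0.0482 when every library was set to the same sum and ran from -0.33 to 0.55 with 1 library left out. The same range was -0.36 to 0.13 for elavl4, where 4 of the 12 turned the sign. The range of tubb4b was -0.11 to 0.31, with the sign turned without MYCN 1, MYCN 2 or MYC 3, and its value was -0.19 with quantile normalisation and -0.12 with every library set to the same sum. For the pairs, the difference of stmn1b minus stmn1a was 0.75 for MYC 1 to 4, 1.29 for MYC 5 to 8, 0.75 with the replicate block and 0.94 without the 3 libraries that deviate together, not called in any of these, and 0.85 to 1.27 with 1 library left out. That of tubb2 minus tubb5 was 1.69, 1.41, 1.69 and 1.78 in the same settings, also not called, and 1.43 to 1.75 with 1 library left out. That of stmn2b minus stmn2a was -2.35 with a pseudocount of 0.1 FPKM and ran from -1.21 to -0.48 with 1 library left out. That of elavl4 minus elavl3 ran from -0.67 to 0.0343 with 1 library left out. With 4 pairs the sign-flip test behind the block cannot give a p below 0.125. The exact test cannot give one below 0.0286 with 4 against 4 libraries, even before adjustment over the gene pairs, and leaving libraries out also raises its smallest p. An ended call of a pair in these settings therefore does not by itself show a weaker difference. Of the 26 single genes followed across the alternatives, the replicate block changed the call of elavl1a only. Where calls ended, the cause was not tested. The FPKM values hide the depth, so low genes such as stmn2b carry an unknown counting error.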

Other observations

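Other neuronal genes of the lists were abundant in both genotypes, named after their values were seen and given as levels with no test. The G protein gamma subunit gene gng3 stood at 388 ± 166 FPKM in MYC (SD, n = 8) and 349 ± 128 FPKM in MYCN (n = 4). The RNA-binding protein gene celf4 stood at 85.3 ± 26.5 FPKM in MYC and 65.5 ± 21.5 FPKM in MYCN. In contrast to these, the intermediate filament gene prph, peripherin, was low in every library, at 3.74 to 16.4 FPKM in MYC and 1.44 to 7.26 FPKM in MYCN.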
